A study of Danio rerio with 25 samples.

Results

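The miR-10 and miR-196 microRNAs were followed across 5 ages in small-RNA libraries made from skin of male zebrafish. The members were the rows of a microRNA hairpin count table named miR-10 or miR-196, with any letter and any copy number. There were 10 such hairpins of 346 in the table: miR-10a, miR-10b-1, miR-10b-2, miR-10c and miR-10d, and miR-196a-1, miR-196a-2, miR-196b, miR-196c and miR-196d. With the genomic copies of one name summed, these were 8 names of 217. All 10 hairpins and all 8 names passed the filter on low counts.

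Skin was taken at 6, 12, 24, 36 and 42 months, with 5 libraries per age. The fish at 6 and 24 months carried the strain label AB JxTü with no transgene. The other ages had a transgene in that strain: flk:mCherry at 12 months, pu.1:GFP at 36 months and wt1a:GFP at 42 months. Only 24 against 6 months compared one strain label, and at every other pair of ages the strain and the age cannot be told apart. The labels name skin without a body site and do not say in words that the libraries came from separate fish. The p-values therefore set a difference between ages against the spread among libraries, which may not be the spread among fish. Replicate numbers follow the accession order and only name a library. Library totals ran from 683884 counts (42 months replicate 2) to 5206505 counts (12 months replicate 5).

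MicroRNAs are short RNAs that pair with messenger RNAs and lower their translation or stability. Most genes of miR-10 and miR-196 lie inside the Hox clusters, whose transcription factors give cells their position along the head-to-tail axis. In zebrafish embryos miR-10 represses hoxb1a and hoxb3a, and in the mouse miR-196 directs cleavage of the Hoxb8 messenger RNA. A bulk skin library mixes epidermis, dermis, scales, vessels, nerves and pigment cells, and a lower level from fewer cells of a type cannot be told apart from less RNA per cell.

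The order of genes in the RefSeq gene table (assembly GRCz12tu) placed 9 of the 10 hairpins beside a Hox gene. All 10 hairpins were matched by name, and the table was used for gene order alone, since the sources used here name no build for the counts. Genes were ordered by where they start, and their ends were not used. A listed neighbour can therefore overlap a hairpin or reach past it, so the neighbours give the cluster and not the exact site. In the miR-10 family, the order by start put miR-10a after hoxb5b and miR-10b-1 between hoxd4a and hoxd9a. It put miR-10b-2 between hoxc5a and hoxc4a, and miR-10c between hoxb5a and hoxb4a. MiR-10d stood between the coding genes lnpk and mtx2, with no Hox gene among the 6 genes on either side. Whether that site came from a Hox cluster was not examined here. In the miR-196 family, the order by start put miR-196a-1 between hoxc3a and hoxc9a and miR-196a-2 between hoxa9a and hoxa3a. By the same order miR-196b came between hoxb10a and hoxb9a, miR-196c between hoxc11b and hoxc6b, and miR-196d between hoxa10b and hoxa9b. MiR-10c and miR-196b thus shared the hoxba cluster, and miR-10b-2 and miR-196a-1 shared the hoxca cluster.

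The levels of the families lay far apart. Summed over its members, miR-10 held 17.0% ± 2.74 (SD, n = 25) of all counts in a library, and miR-196 held 0.106% ± 0.0207 (SD, n = 25). Within each library the miR-10 counts were 97.8 to 238 times the miR-196 counts. Levels are given as CPM, the counts per 1000000 counts of a library whose size was scaled by TMM, with copies summed unless stated. A read spans a whole mature microRNA, so no scaling by length was applied.

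MiR-10b had the highest mean level of all 217 names, at 123567 CPM over the 25 libraries. MiR-10c ranked 11 at 31965 CPM and miR-10a ranked 18 at 15412 CPM. MiR-10d, which had no Hox gene among the 6 genes on either side, ranked 115 at 257 CPM. In the miR-196 family, miR-196a ranked 91 at 455 CPM, miR-196b ranked 96 at 400.4 CPM, miR-196c ranked 125 at 169.6 CPM and miR-196d ranked 161 at 24.6 CPM. The highest library was 2.04 to 2.49 times the lowest for miR-10a, miR-10b and miR-10c, and 1.88 to 2.19 times for miR-196a, miR-196b and miR-196c. The spread was wider for miR-10d, at 3.90 times, and for miR-196d, at 3.42 times. MiR-196d also had the fewest reads, with 8 to 190 counts per library. Its lowest library, 42 months replicate 2, held 8 of 683884 counts, which is 11.7 CPM of that unscaled total with an exact 95% binomial interval of 5.05 to 23. That interval covers counting error alone.

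**Figure D1:**
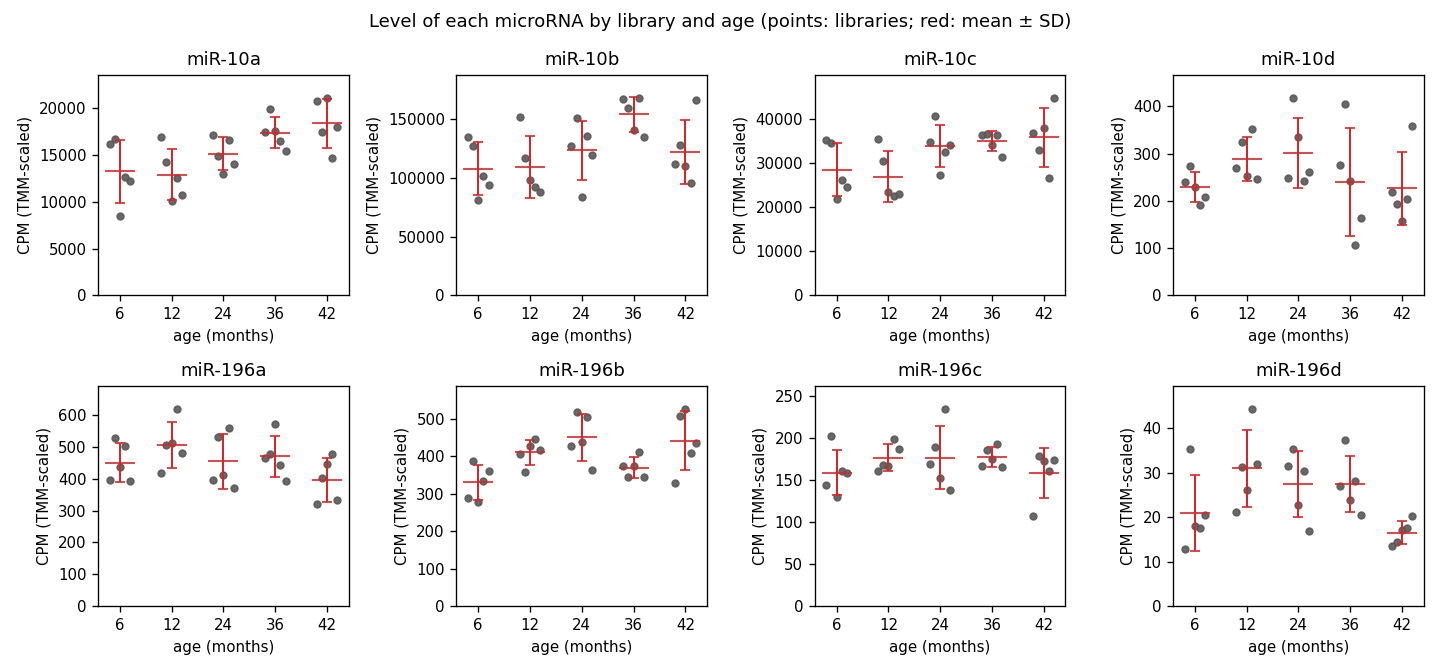
Level of each member name in the 25 libraries by age in months (CPM, TMM-scaled, copies summed), 1 panel per name with its own linear axis from 0. Points are libraries and red lines are the mean ± SD of 5 libraries; miR-10b lies near 123567 CPM and miR-196d near 24.6 CPM on average.

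The copies of a name matched more closely in miR-10b than in miR-196a. MiR-10b-1 and miR-10b-2 had totals of 4874218 and 4855125 counts, and their ratio within a library stayed between 0.993 and 1.01. MiR-196a-1 and miR-196a-2 had totals of 20341 and 17048 counts, and copy 1 was higher in 25 of 25 libraries, by a ratio of 1.06 to 1.33 with a median of 1.23. The mean ratio by age ran from 1.17 at 12 months to 1.25 at 24 months, with no order along age. The sources used here do not say how a read that matches both copies was counted, and the summed levels of miR-10b and miR-196a hold such reads more than once if each copy took them. The same limit applies to the shares of both families, the ratio between the families and every ratio to miR-10b.

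The miR-10 members beside Hox genes were compared across ages first. MiR-10a measured 16194, 16678, 8439, 12695 and 12249.7 CPM at 6 months and 16892, 14202, 10136, 12519 and 10771 CPM at 12 months. It measured 17181, 14843, 13006, 16591 and 14039 CPM at 24 months and 17500.2, 19931, 17553, 16468 and 15476 CPM at 36 months. At 42 months it measured 20715, 17459, 21036, 14709 and 18003 CPM. The young ages held the low libraries and 42 months held the highest library, while the 6-month and 42-month ranges overlapped.

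MiR-10a rose with age. Its means were 13251 ± 3349 CPM at 6 months, 12904 ± 2736 at 12, 15132 ± 1741 at 24, 17386 ± 1659 at 36 and 18385 ± 2597 at 42 months (SD, n = 5 each). The linear trend was 0.17 ± 0.04 log2 units per 12 months (SE; adjusted p = 0.0041 in edgeR's quasi-likelihood test with Benjamini-Hochberg adjustment over the 190 names tested), with a 95% interval of 0.08 to 0.27. Of all names tested, 13.2% rose in this trend and 8.95% fell. Among the members, miR-10a and miR-10c rose, 2 of 8, and none fell. The miR-10a trend passed with each of the 25 libraries left out in turn, at slopes of 0.15 to 0.20 and adjusted p from 0.0013 to 0.0122. With the 42-month group left out the slope was 0.17 (adjusted p = 0.0394), and with a term for a transgene it was 0.19 (adjusted p = 0.0167). That term only marked whether any transgene was present. Each transgene had a single age, so the term cannot separate strain from age. At 24 against 6 months, within one strain label, miR-10a differed by 0.19 ± 0.16 log2 units and did not pass (SE; adjusted p = 0.4185, edgeR). On the hairpin table as deposited, miR-10a had a slope of 0.14 ± 0.04 (SE; adjusted p = 0.025 in edgeR) and was the only 1 of 10 member hairpins called, where 12% of the 258 hairpins tested rose and 25.2% changed in either direction. That hairpin call was lost without 6 months replicate 3, without 42 months replicate 3 and with upper-quartile scaling, which left 0 of 10 called.

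MiR-10c measured 35204, 34599, 21885, 26140.4 and 24540.2 CPM at 6 months and 35364, 30339, 23332, 22434 and 22879 CPM at 12 months. It measured 34683, 40639, 27242, 32515 and 34086 CPM at 24 months and 36315, 36558, 33999.8, 36279 and 31294 CPM at 36 months. At 42 months it measured 36806, 33011, 37886, 26518 and 44578 CPM. The highest library was at 42 months, and the 5 libraries at 36 months stood close together, while every pair of ages overlapped.

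The miR-10c slope was 0.13 ± 0.04 log2 units per 12 months (SE; adjusted p = 0.0313, edgeR). The call was lost without 6 months replicate 3, 4 or 5 (adjusted p = 0.0634, 0.0561 and 0.0666) and without 42 months replicate 3 or 5 (adjusted p = 0.0503 and 0.0726). It was also lost with upper-quartile scaling (slope 0.08, adjusted p = 0.181), with library size alone (slope 0.08, adjusted p = 0.0842), with the 42-month group left out (slope 0.15, adjusted p = 0.0651) and on the hairpin table as deposited (slope 0.10, adjusted p = 0.0731).

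MiR-10b, the most abundant member, measured 134836, 127777, 81264, 101566 and 94443 CPM at 6 months and 151853, 117242, 98155, 92342 and 87880.1 CPM at 12 months. It measured 127419, 151372, 83799.8, 135964 and 119547 CPM at 24 months and 167483, 159680.0, 141174, 167921 and 135294 CPM at 36 months. At 42 months it measured 111631, 128135, 109946, 96170.4 and 166288 CPM. With copies summed, all 5 libraries at 36 months stood above all 5 at 6 months, while for each copy as deposited these ranges overlapped. The library at 42 months replicate 5 was high among otherwise lower libraries of its age.

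MiR-10b was 1.43-fold higher at 36 than at 6 months, a log2 change of 0.52 ± 0.18 (SE; adjusted p = 0.0487, edgeR). It was the 1 member of 8 called, where 10% of the names tested were higher and 9.47% lower. It was also the 1 member whose ranges did not overlap, which held for 20.5% of the names. The call stood close to the threshold and was lost without 19 of the 25 libraries, each left out in turn, with adjusted p up to 0.142 without 36 months replicate 4. Both copies as deposited gave 0.44 and 0.43 log2 units (adjusted p = 0.0497 for each, edgeR). These were 2 of 10 hairpins, where 10.9% of hairpins were higher and 14.3% lower. The copies had nearly equal counts in every library, so their 2 calls are in effect 1, here and at 36 against 12 months. At 36 against 12 months both copies as deposited were called too, each at 0.51 log2 units (adjusted p = 0.0393, edgeR). There 6.59% of hairpins were higher and 4.26% lower, while summed miR-10b was not called (0.50, adjusted p = 0.0894, edgeR). Its mean was 154310.0 ± 15180.5 CPM at 36 months and 122434 ± 27010 CPM at 42 months (SD, n = 5 each), a log2 difference of -0.33 ± 0.18 that did not pass (adjusted p = 0.234, edgeR). The linear trend of miR-10b, at 0.12 ± 0.05 log2 units per 12 months, did not pass over all 25 libraries (adjusted p = 0.106, edgeR), and it passed with the 42-month group left out (0.21, adjusted p = 0.0215) or without 42 months replicate 4 (0.15, adjusted p = 0.047).

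Libraries that were low for one of these 3 members tended to be low for the others. The library at 6 months replicate 3 was the lowest of all 25 in CPM for miR-10a, miR-10b and miR-10c. As a share of unscaled counts it stayed the lowest for miR-10a and miR-10c. For miR-10b its share was 9.40%, against 9.03% in 42 months replicate 1. Likeness of pattern was measured as the standard deviation (SD), over the 25 libraries, of the log2 ratio between 2 names. This is a description without a test. The depth and scaling of a library cancel in the ratio apart from counting error, while its CPM levels share them. The SD was 0.17 for miR-10a with miR-10c, 0.17 for miR-10b with miR-10c and 0.25 for miR-10a with miR-10b, against a median of 0.50 to 0.53 for these members with the other names. That median takes in names of low count, whose counting error widens the SD, and was not matched for level. For each of them the nearest names were the other 2 and then miR-130a, at an SD of 0.25 to 0.28. The sources used here do not say how a read that matches more than 1 name was counted. Whether such reads made names of the miR-10 or miR-196 family alike was not tested.

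MiR-10d did not keep to that pattern. It measured 239, 275, 229.7, 192 and 208 CPM at 6 months and 270.3, 326, 252, 352 and 247 CPM at 12 months. It measured 249, 417, 336, 242 and 262 CPM at 24 months and 277, 406, 243, 107 and 164 CPM at 36 months. At 42 months it measured 219, 193, 157, 204 and 359 CPM. The lowest library and one of the highest were both at 36 months, and all ages overlapped. No comparison called it, with a trend of -0.05 ± 0.08 log2 units per 12 months (SE; adjusted p = 0.711, edgeR) and a 95% interval of -0.21 to 0.11. Its log2 ratios to the other miR-10 members had SDs of 0.51 to 0.56, ranking 23, 24 and 26 among the 28 pairs of members. These SDs still lay below the median of 0.62 for miR-10d with the other names. Its nearest names were let-7d and let-7g, at 0.41 each, and miR-20a at 0.44.

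**Figure D2:**
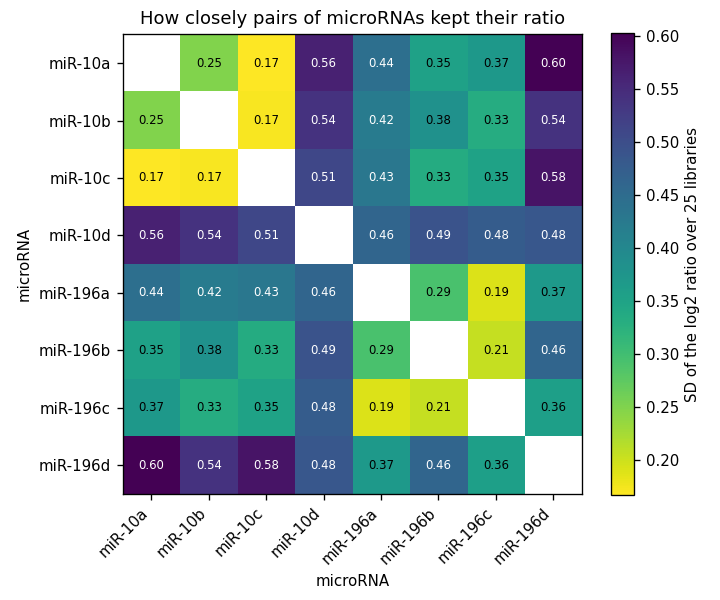
Standard deviation over 25 libraries of the log2 ratio between each pair of the 8 member names (log2 units; counts plus 0.5). The low values lie among miR-10a, miR-10b and miR-10c (0.17 to 0.25) and among miR-196a, miR-196b and miR-196c, and the largest is 0.60 for miR-10a with miR-196d.

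The miR-196 members were not called at the same pairs of ages, and whether they shared a course with age was not tested. MiR-196b measured 289, 387, 279, 334 and 361 CPM at 6 months and 406, 357, 428, 445 and 416 CPM at 12 months. It measured 428, 519, 439, 503 and 364 CPM at 24 months and 374, 344, 374, 411 and 344 CPM at 36 months. At 42 months it measured 329, 507, 525, 409 and 435 CPM. The 6-month libraries were the low ones, and within their range lay 4 of the 5 libraries at 36 months and 1 library each at 12, 24 and 42 months.

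MiR-196b was higher at 24 than at 6 months, the comparison within one strain label, by 0.45 ± 0.13 log2 units or 1.37-fold (SE; adjusted p = 0.0198, edgeR). It was the 1 member of 8 called there, where 11.6% of the names tested were higher and 12.1% lower. The call was lost without 6 months replicate 1 (0.31, adjusted p = 0.0951), without 24 months replicate 2 (0.30, adjusted p = 0.0953) and on the hairpin table as deposited (0.34, adjusted p = 0.0699). The other 7 members did not pass between these ages, with 95% intervals from -0.15 to 0.53 for miR-10a, -0.18 to 0.57 for miR-10b and -0.30 to 0.32 for miR-196a in log2 units.

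At 42 against 6 months 2 of 8 members were called, both higher, where 15.3% of the names tested were higher and 12.1% lower. MiR-196b differed by 0.42 ± 0.13 log2 units (SE; adjusted p = 0.0233, edgeR) and miR-10a by 0.47 ± 0.16 (SE; adjusted p = 0.038, edgeR). The ranges overlapped for all 8 members, while they did not for 12.1% of the names. MiR-10a lost its call without 6 months replicate 3, 4 or 5 (adjusted p = 0.106, 0.0721 and 0.0855) and without 42 months replicate 1, 3 or 5 (adjusted p = 0.0858, 0.0856 and 0.056). MiR-196b lost its call without 6 months replicate 1 or 3 (adjusted p = 0.0599 and 0.0589) and without 42 months replicate 2 or 3 (adjusted p = 0.0608 and 0.0688). Upper-quartile scaling shifted the median log2 difference of all names at these ages by -0.226 and library size alone by -0.175, and both calls were lost under each. The trend of miR-196b was 0.07 ± 0.04 log2 units per 12 months and did not pass (adjusted p = 0.256, edgeR).

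**Figure D3:**
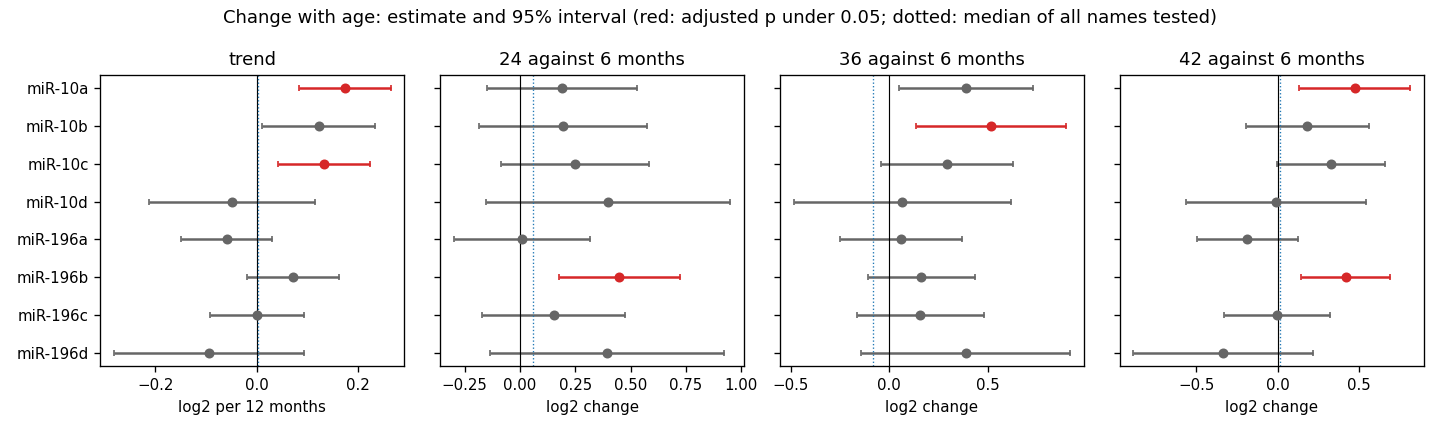
Slope per 12 months of each member name and its log2 difference at 24, 36 and 42 against 6 months, from edgeR with 95% intervals, with the median of all names as a dotted line. Red points passed the adjusted p threshold of 0.05, such as miR-196b at 24 months (0.45) and miR-10b at 36 months (0.52).

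MiR-196d, the rarest member, measured 12.9, 35.3, 17.95, 17.7 and 20.5 CPM at 6 months and 21.1, 31.2, 26.1, 44.2 and 31.9 CPM at 12 months. It measured 31.5, 35.4, 22.7, 30.3 and 16.95 CPM at 24 months and 26.96, 37.3, 23.9, 28.02 and 20.6 CPM at 36 months. At 42 months it measured 13.5, 14.4, 17.03, 17.5 and 20.2 CPM. The 42-month libraries lay below all libraries of 12 and of 36 months, and within the range of 6 months.

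MiR-196d was lower at 42 than at 12 months, with a log2 difference of -0.90 ± 0.26, or 0.535-fold (SE; adjusted p = 0.0338, edgeR). It was the 1 member of 8 called there, where 7.89% of the names tested were called, 2.11% lower and 5.79% higher. The ranges did not overlap, which held for 3.68% of the names. The call was lost without 12 months replicate 2, 3, 4 or 5 (adjusted p = 0.059, 0.0501, 0.0986 and 0.0681) and without 42 months replicate 1, 2 or 3 (adjusted p = 0.0782, 0.0582 and 0.0554). These rest on 41 to 190 counts per library at 12 months and 8 to 48 at 42 months. At 42 against 36 months its log2 difference was -0.72 ± 0.26 and did not pass (adjusted p = 0.0985, edgeR), and the ranges did not overlap, as for 6.32% of the names.

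MiR-196a and miR-196c passed in no comparison. MiR-196a measured 395, 527, 435, 501 and 393 CPM at 6 months and 416, 505, 511, 617 and 480.4 CPM at 12 months. It measured 397, 530.1, 411, 559 and 370.4 CPM at 24 months, 463, 477, 572, 444 and 394 CPM at 36 months, and 320.5, 401, 447, 476 and 334 CPM at 42 months. The highest library was at 12 months and the lowest at 42 months, with all ages overlapping. Its trend was -0.06 ± 0.04 log2 units per 12 months, with a 95% interval of -0.15 to 0.03 (SE; adjusted p = 0.341, edgeR).

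MiR-196c measured 129 to 202 CPM at 6 months (median 158), 161 to 199 at 12 months (median 168), 138 to 234 at 24 months (median 169), 166 to 193 at 36 months (median 175) and 107 to 179 at 42 months (median 172). The ranges of all ages overlapped, and its trend had a 95% interval of -0.09 to 0.09 log2 units per 12 months (adjusted p = 0.994, edgeR). MiR-196c was the member most like the rest of its family, while some names outside the family were about as near to these members. The log2 ratio of miR-196c had an SD of 0.19 to miR-196a, 0.21 to miR-196b and 0.36 to miR-196d. MiR-196c was the nearest name of all to each of those 3. After miR-196a and miR-196b, the name next nearest to miR-196c was miR-27d (0.22). For miR-196a the next names were miR-20a and miR-19a (0.23 each), and for miR-196b miR-29a (0.23) and miR-19b (0.25). For miR-196d they were miR-196a (0.37) and miR-19a (0.40). MiR-196a with miR-196b stood at 0.29. Medians with the other names were 0.48 to 0.50 for miR-196a, miR-196b and miR-196c, and 0.67 for miR-196d.

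MiR-10c and miR-196b, which share a cluster, were not the most alike of all member pairs. Of the 45 pairs of member hairpins, miR-10c with miR-196b, both in the hoxba cluster, ranked 15 at an SD of 0.335. The pairs ranked 1 to 12 all joined hairpins of the same family. Across families only miR-196c with miR-10b-2 (rank 13, 0.332) and with miR-10b-1 (rank 14, 0.335) came before it, and these values were nearly tied. MiR-10b-2 with miR-196a-1, both in the hoxca cluster, ranked 24 at 0.41. MiR-10b-1, which lies in another cluster, also gave 0.41 with miR-196a-1. The miR-10b copies had nearly equal counts in every library, so this pair cannot tell one cluster from another. The most alike pairs of names, miR-10a with miR-10c and miR-10b with miR-10c, joined hairpins of different clusters.

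Across the 10 pairs of ages, 5 of the 80 tests of a member were called, 4 higher and 1 lower at the older age, against 11.2% of the 1900 tests over all names. No member was called at 12 against 6, 24 against 12, 36 against 12, 36 against 24, 42 against 24 or 42 against 36 months in edgeR, where 1.58%, 0%, 8.95%, 6.32%, 10.5% and 6.32% of names were called. At an unadjusted p under 0.05 these pairs had 2, 1, 3, 1, 1 and 1 of 8 members, against 19.5%, 14.2%, 23.7%, 27.9%, 23.7% and 25.8% of names. DESeq2 called miR-10b at 36 against 12 months and no member at the other 5 pairs. For any difference among the 5 ages, miR-10a (adjusted p = 0.0429), miR-196b (adjusted p = 0.0389) and miR-196d (adjusted p = 0.0488) passed in edgeR, 3 of 8, against 36.3% of all names. Those calls were lost without 12, 13 and 21 of the 25 libraries in turn, with adjusted p up to 0.0769, 0.0974 and 0.102. With hairpins as deposited 0 of 10 passed, where 38.4% of hairpins did, 4 of 10 had an unadjusted p under 0.05, where 52.3% of hairpins did, and DESeq2 called 3. In order of mean level, ages next to each other were not called apart for any member; such neighbours are close because the order was made from the same means. MiR-10a and miR-10c were lowest at 12 months and highest at 42. MiR-10b was lowest at 6 and highest at 36 months, and miR-196b was lowest at 6 and highest at 24. MiR-10d, miR-196a, miR-196c and miR-196d were lowest at 42 months.

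Summed by number, neither family passed in the trend, with slopes of 0.09 ± 0.05 for miR-10 (SE; adjusted p = 0.167, edgeR) and -0.05 ± 0.05 for miR-196 (SE; adjusted p = 0.506, edgeR). For any difference among ages the adjusted p was 0.0819 for miR-10 and 0.601 for miR-196. At 36 against 6 months summed miR-10 differed by 0.41 ± 0.16 log2 units and did not pass (adjusted p = 0.0664, edgeR). It came nearest to a call at 36 against 12 months, at 0.49 ± 0.16 log2 units (SE; adjusted p = 0.0515, edgeR). Its ranges there did not overlap, which held for 11.3% of the families tested.

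The proportions among members were tested within libraries, which removes the scaling. None of 16 exact permutation tests (two-sided, 5 against 5 libraries, smallest possible p = 0.00794) passed the Benjamini-Hochberg adjustment. A ratio at that smallest p with no other low p could not pass over 16 tests. The lack of calls therefore does not show that the proportions were unchanged. The ratio of miR-10c to miR-10b was 0.227 ± 0.0105 at 36 months against 0.264 ± 0.00599 at 6 months (SD, n = 5 each), and the 36-month libraries all lay below the 6-month ones. That log2 difference of -0.22 had an exact permutation p of 0.00794, the smallest the design can give, and an adjusted p of 0.127. The ratio of miR-10a to miR-10b was 0.155 ± 0.0346 at 42 months against 0.122 ± 0.0109 at 6 months, with overlapping ranges (log2 0.32, exact permutation p = 0.0952, adjusted p = 0.339). Summed miR-196 per 1000 counts of summed miR-10 was 5.07 ± 0.503 at 36 months against 6.59 ± 1.25 at 6 months (log2 -0.36, exact permutation p = 0.0556, adjusted p = 0.296).

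The ratio of miR-196a to miR-196b, chosen after its values were seen and so without a test, was 1.38 ± 0.181 at 6 months, 1.24 ± 0.164 at 12, 1.003 ± 0.0747 at 24, 1.28 ± 0.182 at 36 and 0.909 ± 0.163 at 42 months (SD, n = 5 each). The 24-month and 42-month libraries held the low values, with slight overlap with 6 months.

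**Figure D4:**
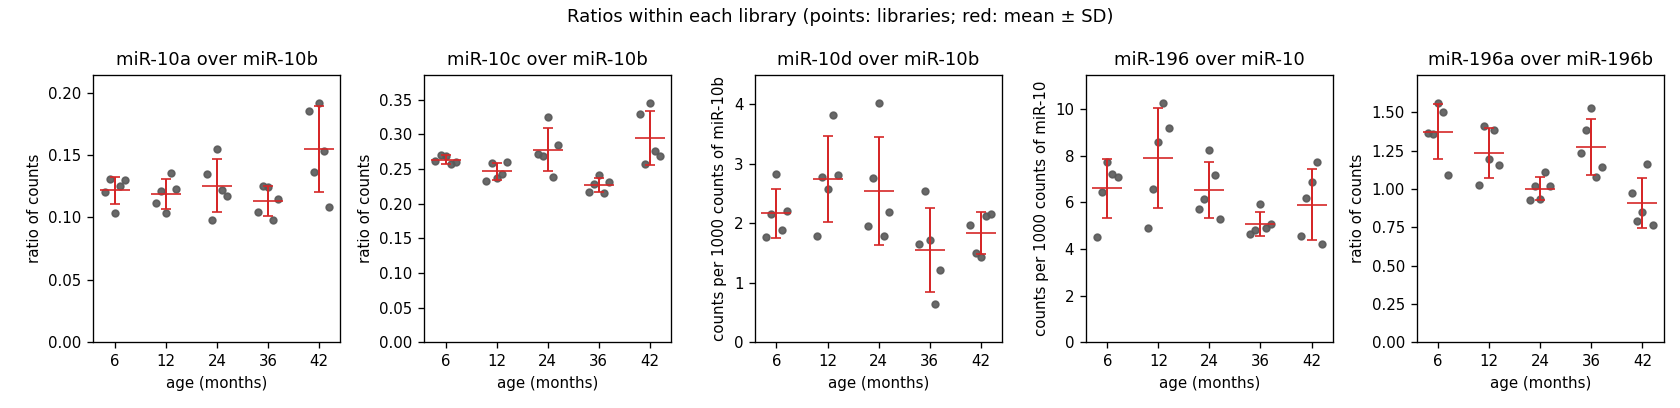
Ratios between members within each library by age in months, as points with the mean ± SD of 5 libraries. The panels of miR-10d and of summed miR-196 give counts per 1000. The ratio of miR-10c to miR-10b is lower in all 5 libraries at 36 months (mean 0.227) than in the 5 at 6 months (mean 0.264).

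The relatives of miR-10 outside the Hox clusters, miR-99 and miR-100, rose in the same trend, 2 of 2 names, where 13.2% of all names rose. As deposited, miR-99-2 did not pass (0.13 ± 0.06, SE; adjusted p = 0.0905, edgeR), while the other 3 of their 4 hairpins did, where 12% of hairpins rose. MiR-100 had a slope of 0.26 ± 0.04 log2 units per 12 months (SE; adjusted p = 3.96e-05, edgeR), from 3136 ± 412 CPM at 6 months to 5603 ± 1587 CPM at 42 months (SD, n = 5 each). MiR-99 had a slope of 0.20 ± 0.06 (SE; adjusted p = 0.0263, edgeR), and its mean stood at 656 ± 36.4 CPM at 6 months, 685 ± 145 at 12, 776 ± 69.8 at 24, 682 ± 56.6 at 36 and 1146 ± 501 CPM at 42 months (SD, n = 5 each). MiR-99 at 36 against 6 months differed by 0.06 ± 0.20 log2 units and did not pass (adjusted p = 0.85, edgeR). Both slopes were larger in value than that of miR-10a, and the difference was not tested.

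Marker microRNAs of other cells in skin were summed by library as a description. The pigment marker miR-204 ran from 23110 to 41030 CPM at 6 months and from 33430 to 44450 CPM at 42 months. The keratinocyte markers (3 names) ran from 67290 to 107700 CPM at 6 months and from 61870 to 215600 CPM at 42 months, the highest in 42 months replicate 2. The skeletal muscle markers (5 names, 1 lower in the trend) averaged 8234, 11270, 10200, 6019 and 8464 CPM at 6, 12, 24, 36 and 42 months. At the same ages in order, the neural markers (2 names, 1 higher in the trend) averaged 160.9, 409.8, 199.6, 352.1 and 530.9 CPM. Their highest library was 42 months replicate 5, at 1885 CPM, which was also the highest library for miR-10c. The epithelial markers (6 names, 2 lower in the trend) averaged 13470, 10980, 9657, 10480 and 9801 CPM at those ages. The mesenchymal markers (4 names) averaged 32760, 34700, 41390, 35390 and 36690 CPM at those ages. The endothelial markers (2 names) averaged 5871, 6096, 8315, 6952 and 7532 CPM, and none of these 6 names was called in the trend. The leukocyte markers (4 names, 1 higher in the trend) averaged 2980 to 3622 CPM by age, and the erythroid markers (2 names) 1506 to 2520 CPM. None of the listed markers was at 0 over all libraries. The part of these cell types in the miR-10 and miR-196 levels was not tested.

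The scaling of the libraries shifted the slopes of all members together, most with library size alone and upper-quartile scaling, which gave lower slopes than TMM for all 8 names.

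**Figure D5:**
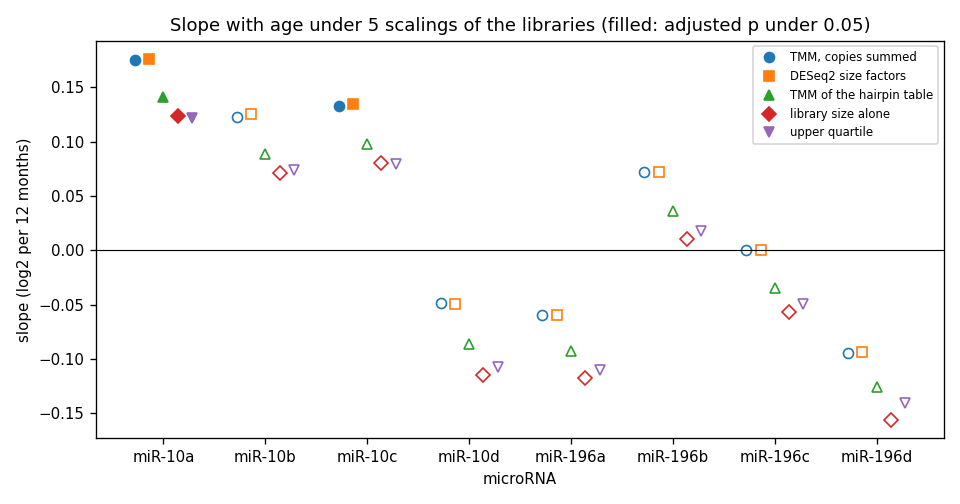
Slope per 12 months (log2) of each member name under 5 scalings of the libraries, filled where the adjusted p was under 0.05. MiR-10a is filled under all 5, with slopes of 0.12 to 0.18, while miR-10c is filled under 2 and miR-196c turns from 0.00035 to as low as -0.057.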

How the data were processed

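The authors deposited unnormalized counts of reads by microRNA hairpin, and all values were whole numbers. The submitters' processing notes name, with no role or order, SAMtools 1.3.1-9, BWA 0.7.12-r1039, Trimmomatic 0.36 and CASAVA 1.8.4. The sources used here do not give the counting rule, hairpin reference or build. Per the labels' protocols, libraries came from total RNA with an Illumina TruSeq small-RNA kit. Total counts ran from 683884 to 5206505 per library.

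Counts were summed over copies of a name and tested in R 4.3.3 with edgeR 4.0.16. Settings were TMM scaling, filterByExpr by age (minimum count 10) and quasi-likelihood fits over all 25 libraries. Pairs of ages and any difference were tested with age as a group, and the trend in a separate fit with age as a number. Adjustment was by Benjamini-Hochberg over the 190 names tested, at 0.05. Standard errors are the log2 change over the root of F. The 95% intervals use 20 degrees of freedom, for slopes as well. The hairpin table as deposited (258 tested) and families summed by number (124 tested) were fitted in the same way. Ratios were tested with SciPy 1.17.1 on counts plus 0.5. The scripts were tested on simulated data. DESeq2 1.42.0 and limma 3.58.1 were alternatives. Every member was named, with the 3 names most like each. Members, marker lists and tests were chosen with earlier results of these data known.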

Additional observations from a re-analysis of the deposited data

Results flagged for a closer look

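One of the 40 groups of 5 libraries held a library set apart from the others by its gap. It was miR-196c at 42 months, where replicate 1 measured 107.1 CPM and the nearest other library 160.8 CPM, a gap of 0.75 of the whole range. Chance sets apart about 1 group in 20.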

How the results depend on the processing

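The trend of miR-10a with copies summed kept its direction and passed under all 12 other settings (adjusted p from 0.000676 to 0.043) and without each library. Other calls depended on the settings, and the cause was not tested. No paired analysis was possible because the labels give no replicate numbers that groups share. Of the 8 members, 3 were called for any difference. That count was 0 with no filter on low counts, 5 in DESeq2, 1 without libraries under 1000000 counts, 1 without the 42-month group and 0 with TMM factors from the hairpin table, an alternative chosen after seeing the data. The trend called 1 member, not 2, with upper-quartile scaling, library size alone or hairpin TMM factors. At 24 against 6 months 0 were called with library size alone or hairpin factors. At 36 against 6 months 2 were called with a mean CPM minimum of 100, and 0 without libraries under 1000000 or with hairpin factors. At 42 against 6 months 0 were called with upper-quartile scaling, library size alone, the CPM minimum, the 2 ages alone or hairpin factors, and 1 with no filter or without libraries under 1000000. At 36 against 12 months 2 were called with the CPM minimum and 1 in DESeq2 or with hairpin factors. At 42 against 12 months 2 were called with DESeq2 size factors, upper-quartile scaling, DESeq2 or limma-voom, and 0 with the CPM minimum, which removes miR-196d, or the 2 ages alone. With upper-quartile scaling 1 was called at 42 against 24 and 2 at 42 against 36 months. Of the 10 hairpins, any difference called 1 with upper-quartile scaling and 3 with library size alone, the CPM minimum, DESeq2 or copies summed. The hairpin trend called 0 with upper-quartile scaling, and 2 in DESeq2, with copies summed, with a transgene term or without 42 months. The miR-196c slope (0.00035) turned to -0.049 with upper-quartile scaling, -0.057 with library size alone, -0.015 with no filter, -0.012 with the CPM minimum, -3.04e-05 in DESeq2, -0.0023 in limma-voom, -0.013 without libraries under 1000000, -0.0073 with a transgene term and -0.035 with hairpin factors. Without the 42-month group the slopes of miR-10d and miR-196d turned to 0.0068 and 0.078. Over all other counts of the library in place of miR-10b, the log2 differences of miR-10a turned to 0.037 at 12 and 0.37 at 36 against 6 months, and that of miR-10c to 0.26 at 36. Over the same counts summed miR-196 turned to 0.19 at 24 and 0.065 at 36 against 6 months.

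Leaving out each library in turn, calls ranged from 0 to 3 for any difference, 1 to 3 in the trend, 0 to 1 at 24, 0 to 2 at 36 and 0 to 2 at 42 against 6 months, and 0 to 4 at 42 against 12 months. For hairpins they ranged from 0 to 5 for any difference and 0 to 2 in the trend. The miR-196c slope ranged from -0.021 to 0.028. The log2 ratio of miR-10a to miR-10b ranged from -0.095 to 0.011 at 12 and -0.050 to 0.12 at 24 against 6 months, and that of miR-196 to miR-10 from -0.14 to 0.058 at 24. MiR-196b at 12 months moved from 410.4 to 444 CPM with library size alone. Depth limits miR-196d most, with 8 counts in its lowest library.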
